A study of Mus musculus with 31 samples.

Results

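The genes described here are 7 mouse genes that handle vitamin C (ascorbate), taken by symbol: Slc23a1, Slc23a2, Slc2a1, Slc2a3, Gsto1, Gsto2 and Gulo. All 7 were found among the 29267 gene identifiers of the RNA-seq tables. Of them, 5 passed the filter on low counts and were among the 14914 genes tested, while Slc23a1 and Gulo did not pass it and are given as counts. RNA was measured in 31 libraries of mouse cells of the strain 129/OG2. OG2 is known as a strain with a green fluorescent reporter under Pou5f1 control. Embryonic stem cells (ESC, untreated, passage 17 and 19) had 2 libraries. Untreated fibroblasts (MEF, passage 2, day 0) had 2. Cells under reprogramming by OKSM (Oct4, Klf4, Sox2 and Myc) carried a Tet1CD virus or a Flag virus, were kept with Vc (vitamin C), DKG or DMSO, and were collected at day 3 or day 8, which gave 12 groups of 2 libraries. Fibroblasts kept for 3 days with Vc, DKG or DMSO had 1 library each. The labels give no dose, do not spell out DKG and do not say what Tet1CD holds. Flag and DMSO are taken as the controls, and all 24 reprogramming libraries carry OKSM.

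Ascorbate enters cells through the sodium-coupled transporters encoded by Slc23a1, which is known mainly from epithelia such as intestine and kidney, and Slc23a2, which is expressed widely. The oxidised form, dehydroascorbate, enters through the glucose transporters GLUT1 (Slc2a1) and GLUT3 (Slc2a3), and inside the cell it is reduced back to ascorbate by glutathione-dependent enzymes that include the omega-class glutathione transferases Gsto1 and Gsto2. Most mammals, mice included, make ascorbate from glucose in the liver, and Gulo encodes the enzyme of the last step. Ascorbate is a cofactor of dioxygenases such as the Tet enzymes and is a common addition to reprogramming medium.

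The genes lie on 6 chromosomes (mm10, GENCODE annotation). Slc23a2 (ENSMUSG00000027340) is at chr2:132052496-132145108 on the minus strand, Slc2a1 (ENSMUSG00000028645) at chr4:119108711-119137983 on the plus strand, Slc2a3 (ENSMUSG00000003153) at chr6:122727809-122801640 on the minus strand and Gulo (ENSMUSG00000034450) at chr14:65986786-66009207 on the minus strand. Slc23a1 is ENSMUSG00000024354. Gsto1 (ENSMUSG00000025068, chr19:47854970-47864790) and Gsto2 (ENSMUSG00000025069, chr19:47865534-47886324) are neighbours on the plus strand. Values are per gene, over all exons. Slc2a1 shares 105 exon bases with the antisense gene Gm12868, and without strand the reads of the pair cannot be told apart there. Of the 50-base stretches of the transcripts, 2.35% in Slc23a1, 1.58% in Slc2a1 and 1.28% in Slc2a3 also occur in transcripts of other genes, and none in Slc23a2, Gsto1, Gsto2 and Gulo.

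The promoters of Slc2a1, Gsto1 and Gsto2 are shown because Slc2a1 changed with time in reprogramming and because the 2 neighbouring Gsto genes had very different levels. Each window runs from 250 bases before to 50 bases after the annotated start (RefSeq, GRCm38.p6). They are at chr4:119108495-119108794, chr19:47854723-47855022 and chr19:47865295-47865594, all on the plus strand. Capitals mark the hypoxia response element core ACGTG and the GC box GGGCGG on either strand, and they do not overlap in these windows.
Slc2a1: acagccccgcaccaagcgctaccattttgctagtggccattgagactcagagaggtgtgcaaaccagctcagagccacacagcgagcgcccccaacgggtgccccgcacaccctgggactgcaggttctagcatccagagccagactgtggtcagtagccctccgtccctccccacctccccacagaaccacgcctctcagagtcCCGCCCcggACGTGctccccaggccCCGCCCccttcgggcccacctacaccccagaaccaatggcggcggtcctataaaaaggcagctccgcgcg
Gsto1: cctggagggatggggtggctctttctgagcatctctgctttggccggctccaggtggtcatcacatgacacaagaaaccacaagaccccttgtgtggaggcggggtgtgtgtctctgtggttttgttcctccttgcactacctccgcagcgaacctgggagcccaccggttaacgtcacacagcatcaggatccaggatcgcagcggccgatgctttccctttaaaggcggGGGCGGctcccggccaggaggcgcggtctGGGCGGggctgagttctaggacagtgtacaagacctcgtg
Gsto2: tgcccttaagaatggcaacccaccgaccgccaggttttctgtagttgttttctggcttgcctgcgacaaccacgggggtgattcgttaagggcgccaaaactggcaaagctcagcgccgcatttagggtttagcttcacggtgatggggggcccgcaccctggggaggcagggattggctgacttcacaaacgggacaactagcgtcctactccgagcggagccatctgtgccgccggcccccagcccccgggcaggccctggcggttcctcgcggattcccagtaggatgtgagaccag
The Slc2a1 window held 1 ACGTG and 2 GC boxes, the Gsto1 window 2 GC boxes and no ACGTG, and the Gsto2 window neither. Over all 32817 promoter windows of the table, 19.6% held ACGTG and 35.6% GGGCGG. The antioxidant response element core TGACNNNGC, held by 12.4% of windows, was in none of the 6 windows searched, of Slc23a2, Slc2a1, Gsto1 and Gsto2. Windows of Slc23a1, Slc2a3 and Gulo were not searched. A second Slc23a2 window had 6 GC boxes, of which a pair overlap, and a second Gsto2 window had 2. These matches describe letters and were not tied to any measurement.

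Levels of different genes were compared by TPM, the deposited unit that corrects for transcript length. In ESC, Slc2a3 led with 469.9 ± 237.1 TPM, followed by Gsto1 with 167.5 ± 189.5, Slc2a1 with 129.2 ± 35.8 and Slc23a2 with 18.7 ± 3.44 TPM (SD, n = 2). In MEF, Gsto1 led with 968.5 ± 84.2 TPM, followed by Slc2a1 with 82.6 ± 6.65, Slc23a2 with 12.2 ± 3.11 and Slc2a3 with 4.63 ± 0.61 TPM. Over the 12 libraries of a day, Gsto1 again led, with a median of 706.7 TPM at day 3 and 747.7 TPM at day 8. Slc2a1 had a median of 55.1 TPM at day 3 and 134.8 at day 8, Slc2a3 25.6 and 60.1, and Slc23a2 16.3 and 21.7 TPM. Slc23a1, Gsto2 and Gulo stayed under 7 TPM in all 31 libraries, the highest being 2.34, 6.94 and 2.41 TPM. Among the 7 genes, Gsto1 was thus the more abundant Gsto gene and Slc23a2 the more abundant Slc23a gene. Of Slc2a1 and Slc2a3, the higher was Slc2a3 in ESC and Slc2a1 in MEF. Other reductase and Slc2a genes were not ranked by TPM.

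**Figure D1:**
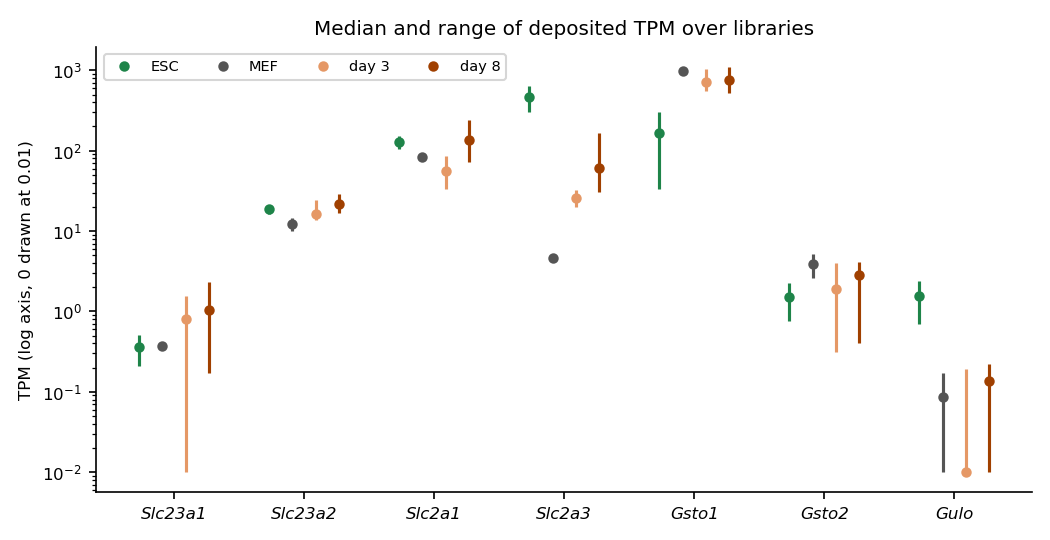
Deposited TPM (log axis, 0 drawn at 0.01) of the 7 genes in ESC, MEF, day 3 and day 8 libraries (2, 2, 12 and 12 libraries); dots are medians and lines run from the lowest to the highest library. Slc2a3 spans the widest range among the well expressed genes, from a median of 4.63 TPM in MEF to 469.9 TPM in ESC.

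Before the comparisons, some libraries need a description. Total counts were between 3953297 and 6818060 per library. The ESC libraries differed in fibroblast RNA. The summed level of 10 fibroblast markers was 10410 CPM (normalised counts, with library sizes scaled by TMM) in ESC 0822 and 92.6 CPM in ESC 0819, against 33140 and 34630 CPM in MEF. Markers of pluripotent cells (10 genes) summed to 2605 and 3590 CPM in ESC, against 0.43 and 1.42 CPM in MEF, where 7 of the 10 were at 0 counts in both libraries. Macrophage markers (10 genes) summed to 206 CPM in ESC 0822 and 359 CPM in ESC 0819, and to 2670 and 551 CPM in MEF 0824 and 0826. None was at 0 counts in MEF or ESC 0822, but 5 were in ESC 0819 (Lyz2, Adgre1, Tyrobp, C1qa and C1qb). They summed to between 16.6 and 152 CPM at day 3 and between 23.2 and 1367 CPM at day 8. The numbers 0824 and 0826 mark the 2 libraries of each other group, are not explained in the labels, and go with shared deviations within a day. In RNA from whole cultures, fewer cells of a type and less RNA per cell cannot be told apart. The labels name no separate cultures, so the p-values reflect how far these libraries spread, possibly for technical reasons.

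In ESC, the dehydroascorbate transporter gene Slc2a3 was far above MEF and the reductase gene Gsto1 far below it. Slc2a3 had 618 CPM in ESC 0822 and 1397 CPM in ESC 0819, against 10.3 and 9.14 CPM in MEF. Both ESC libraries lay far above both MEF libraries. The log2 fold change was 6.69 ± 0.83 (SE; adjusted p = 7.06e-06, edgeR's quasi-likelihood test with Benjamini-Hochberg adjustment over all 14914 genes, as for every adjusted p of the text). Gsto1 had 171.7 CPM in ESC 0822 and 20.2 CPM in ESC 0819, against 620.9 and 551.3 CPM in MEF. The ESC library with the higher Gsto1 is the one with the higher fibroblast markers, and the part of those markers in this value was not tested. Gsto1 fell by 2.61 ± 0.61 on the log2 scale (edgeR, adjusted p = 0.00186). Without ESC 0822 the log2 fold changes were 7.15 for Slc2a3 and -4.87 for Gsto1 (adjusted p = 2.77e-06 and 1.43e-06 in edgeR), and without ESC 0819 they were 5.99 and -1.77.

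Slc23a2, the ascorbate transporter, was modestly higher in ESC, and Slc2a1 had no call in the fit without a block. Slc23a2 had 58.8 and 55.8 CPM in ESC, against 38.01 and 34.9 CPM in MEF. The groups did not overlap. Here and below, that is frequent with 2 libraries a group even without a difference, and its share over all genes was not counted. The log2 fold change of Slc23a2 was 0.65 ± 0.18 (edgeR, adjusted p = 0.00669). That call was lost without MEF 0826 (0.58, adjusted p = 0.0607) and on the log2(TPM + 1) scale with limma (0.58, adjusted p = 0.0766). Slc2a1, the other dehydroascorbate and glucose transporter, had 136.7 and 216.2 CPM in ESC, against 107.8 and 121.1 CPM in MEF. Again the groups did not overlap, with a log2 fold change of 0.62 ± 0.57 (edgeR, adjusted p = 0.365). A fit with a block for the library number within each day called it (0.62 ± 0.22, adjusted p = 0.0216), here and later named the within-day block. The block covers only the day 3 and day 8 libraries. For ESC against MEF it therefore lowers just the error pooled over all groups, not the spread within ESC or MEF. Between days, or for a day against MEF, it takes the spread between the numbers out of the error. Gsto2 passed the filter on low counts narrowly and partly by its 15 counts in MEF 0824, so a fall from MEF was favoured. It had 7 and 2 counts in ESC and 15 and 9 in MEF, a ratio of 0.353 with a 95% counting interval of 0.144 to 0.787, and its log2 fold change of -1.48 ± 0.71 had adjusted p = 0.0875 (edgeR). Without ESC 0822 it was -2.64 (adjusted p = 0.0294). In all, 2 of the 5 tested members rose and 1 fell, where 52.4% of all genes tested were called. With the within-day block 4 members were called, where 64.6% of genes were, and the members' median log2 fold change was 0.62 beside 0 over all genes.

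The other genes of the pathway changed in both directions between ESC and MEF. Of 6 genes of glutathione supply, which feeds the Gsto reaction, 4 rose and 1 fell, with a median log2 fold change of 1.17. Gsr, which regenerates glutathione, had 149 to 216 CPM in ESC, against 27.9 to 31.3 CPM in MEF (2.62 ± 0.27, adjusted p = 1.14e-06 in edgeR), and Gclc, of the first step of glutathione synthesis, rose by 1.42 ± 0.46 (adjusted p = 0.0161). Of 11 other recycling genes 3 rose and 2 fell (median -0.22): Cyb561, an ascorbate-dependent membrane reductase, was higher by 2.53 ± 0.43, and Cyb5r3, which reduces the ascorbate radical with cytochrome b5, fell by 1.16 ± 0.22. Of 4 tested genes of ascorbate synthesis before Gulo, Akr1a1, which makes gulonate from glucuronate, fell by 0.92 ± 0.14 and Akr1b3 was higher by 0.78 ± 0.24 (median of the 4 -0.67). Of 8 other tested Slc2a transporters 2 rose and 3 fell (median -0.62, also with the gene at 0 counts in MEF set at its bound). Slc2a7 reached 3.18 and 5.25 CPM in the ESC libraries and had 0 counts in all MEF, day 3 and day 8 libraries, where 3 counts would be at most 0.845 CPM. Neither of the 2 other Slc23a genes passed the filter. Of 5 genes that regulate Slc2a1 or its protein 2 were called higher, Arrdc4 and Epas1, and Hif1a fell by 0.77 ± 0.18 (median 0.63). Arrdc4 had 25.8 CPM in ESC 0822 and 124 CPM in ESC 0819, against 29.6 and 28.9 CPM in MEF, so it was higher in ESC 0819 only and the groups overlapped. Of 10 targets of hypoxia-inducible factor 2 fell, Adm and Vegfa (median 0.11).

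Slc2a3 was already higher at day 3 of reprogramming. Set against MEF, Flag cells with DMSO at day 3 had 64.0 and 66.5 CPM of Slc2a3, while MEF had 10.3 and 9.14 CPM. All 12 day 3 libraries lay between 41.3 and 66.5 CPM, above both MEF libraries. For the Flag DMSO group the log2 fold change was 2.74 ± 0.72 (edgeR, adjusted p = 0.00904). It was 2.84 without MEF 0824 (adjusted p = 0.0666) and 2.67 without MEF 0826 (adjusted p = 0.067), which both end the call. These groups differ by OKSM, virus, DMSO and time in culture, whose parts cannot be told apart. Fibroblasts kept 3 days in medium without OKSM had 11.2 CPM of Slc2a3 with Vc, 7.32 with DKG and 13.4 with DMSO, close to untreated MEF. The library called DKG here has a title that names another compound (2DG), so what it received is uncertain.

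Slc23a2, Slc2a1 and Gsto1 differed less from MEF at day 3. Slc23a2 had 46.4 and 51.8 CPM in Flag DMSO day 3 cells, against 38.01 and 34.9 CPM in MEF (0.43 ± 0.18, adjusted p = 0.0861 in edgeR), and the within-day block gave adjusted p = 0.0216. Slc2a1 had 104 and 53.5 CPM there, against 107.8 and 121.1 CPM in MEF, which is lower in both libraries (-0.53 ± 0.57, adjusted p = 0.517). Under the within-day block it was -0.59 ± 0.23 (adjusted p = 0.0419). Over all 12 day 3 libraries Slc2a1 lay between 42.1 and 104 CPM, below both MEF libraries. Gsto1 had 292 and 363.6 CPM, against 620.9 and 551.3 CPM in MEF (-0.84 ± 0.57, adjusted p = 0.291). Over all 12 day 3 libraries Gsto1 lay between 292 and 577.4 CPM. Its Tet1CD libraries with Vc, at 571.8 and 577.4 CPM, lay between the MEF libraries. Gsto2 had 1 count in each Flag DMSO day 3 library, against 15 and 9 counts in MEF, a ratio of 0.0694 (95% counting interval 0.00795 to 0.279). Because Gsto2 passed the filter partly by its MEF counts, a fall from MEF was favoured here too. Its fitted log2 fold change was -3.68 ± 0.86 (edgeR, adjusted p = 0.00409), which lost the call without the day 3 library 0824 (adjusted p = 0.0617). Of the 5 tested members 1 rose and 1 fell (median log2 fold change -0.53, 0.04 over all genes), where 28.7% of genes were called, and with the within-day block 4 were called, where 44.8% of genes were.

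Among the other genes at day 3 against MEF, 3 of 6 in glutathione supply rose and none fell (median 0.99). Gsr rose by 1.67 ± 0.27 (adjusted p = 2.5e-04) and G6pdx, which supplies NADPH for glutathione reduction, by 1.22 ± 0.21 (adjusted p = 5.66e-04). Of the 11 other recycling genes 1 rose and 2 fell (median 0.07). Glrx, a glutaredoxin that can reduce dehydroascorbate, fell to between 4.21 and 11.9 CPM over the 12 day 3 libraries, against 39.6 to 52.0 CPM in MEF (-2.85 ± 0.52 in the Flag DMSO group, adjusted p = 7.68e-04). P4hb, a disulfide isomerase and prolyl hydroxylase subunit, fell by 1.21 ± 0.19. Of the 5 Slc2a1 regulators 2 fell, Hif1a by 0.99 ± 0.18 and Arrdc4 by 1.18 ± 0.43 (median of the 5 -0.99). Of 10 targets of hypoxia-inducible factor (HIF) 1 rose, Egln3 (median 0.40). Akr1a1 fell by 0.64 ± 0.14, the only call among 4 genes of synthesis before Gulo (median -0.64), and 2 of 8 other Slc2a genes fell (median -0.64). Cell type markers differed along with these genes and with Gsto1 and Gsto2. Fibroblast markers summed to between 1965 and 5209 CPM over the day 3 libraries, against 33140 and 34630 CPM in MEF, and 6 of 10 fell in Flag DMSO cells (median -3.56). All 10 macrophage markers fell there (median -7.27). Epithelial markers (8 genes) summed to between 61.5 and 128.5 CPM at day 3, against 15.2 and 28.6 CPM in MEF, and 4 rose and 1 fell. The part of these markers in the values was not tested.

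**Figure D2:**
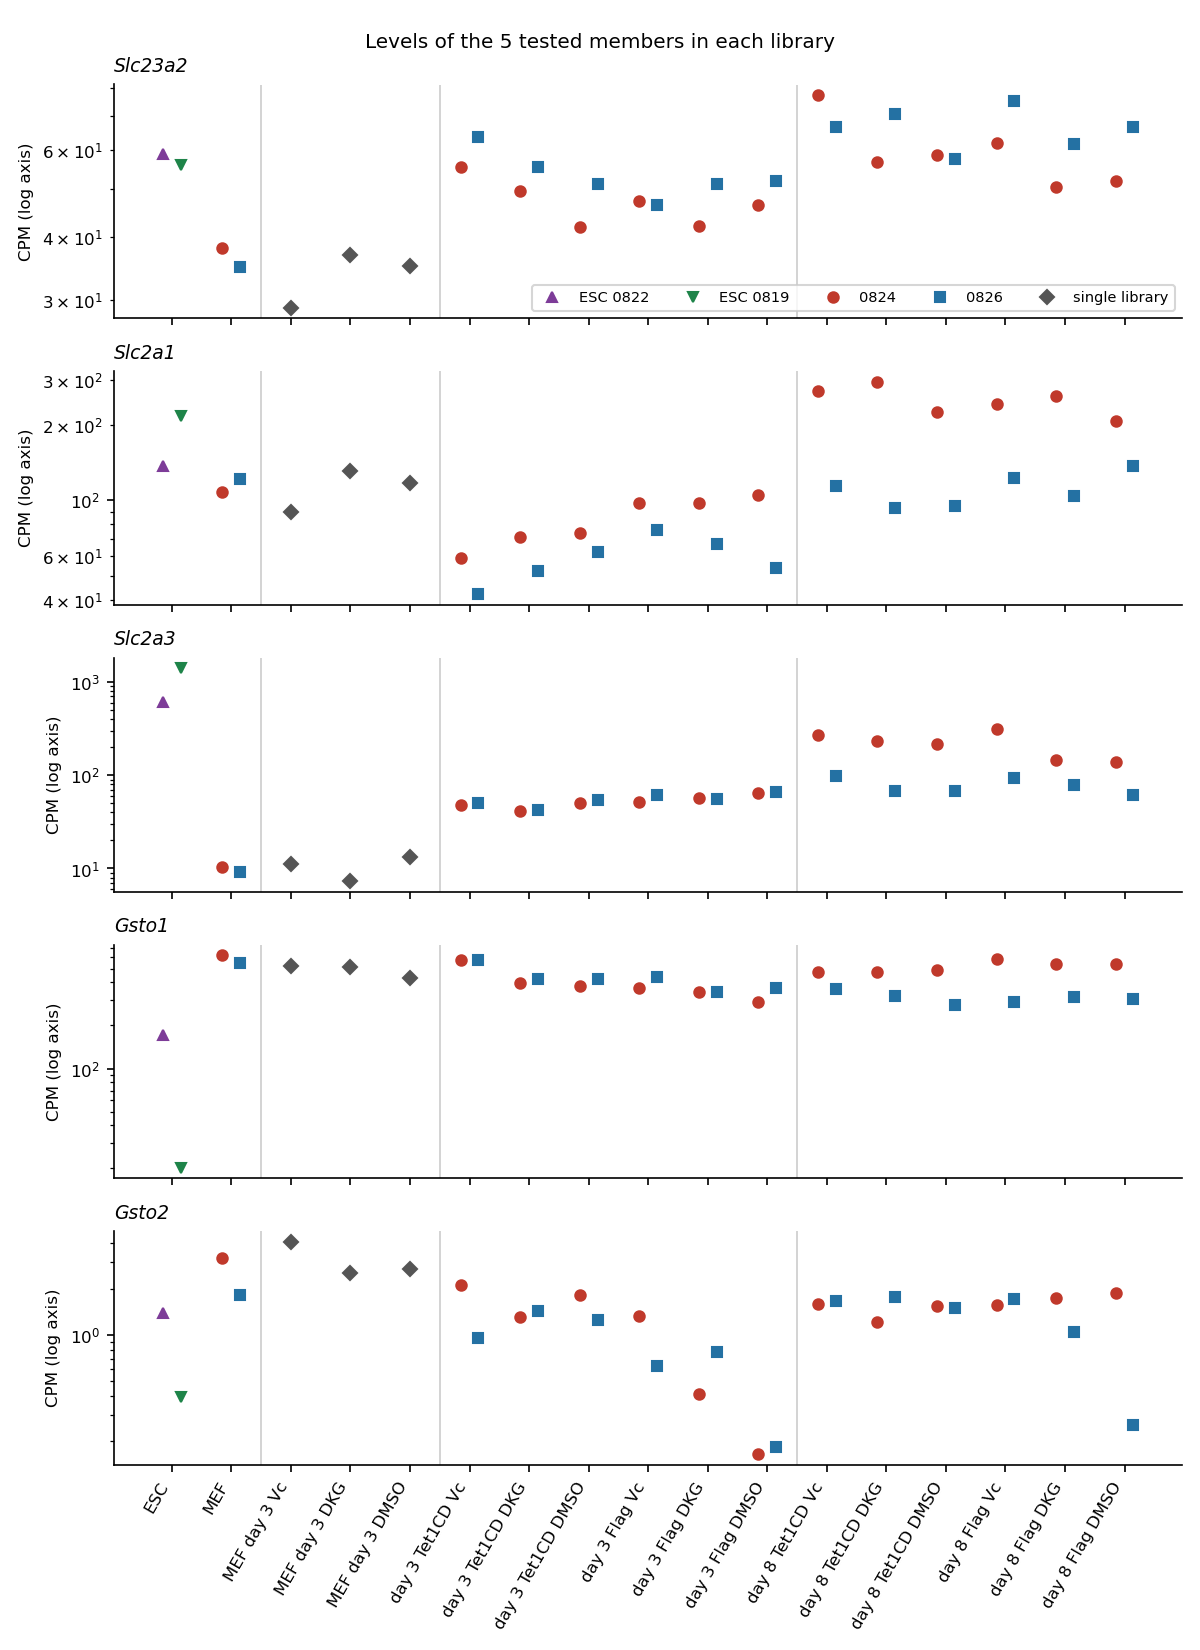
CPM (log axis, a separate scale per gene) of the 5 tested genes in each of the 31 libraries; colour and shape give the library number, and grey diamonds are the fibroblast groups with a single library. Slc2a3 has 9.14 and 10.3 CPM in untreated MEF and 618 and 1397 CPM in ESC. Its lowest value is 7.32 CPM, in the fibroblast library called DKG, and Gsto1 is lowest in ESC 0819 with 20.2 CPM.

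By day 8, Slc2a3, Slc2a1 and Slc23a2 stood higher than at day 3, and Gsto1 did not move one way. Over 6 groups of 2 libraries a day, Slc2a1 had a lowest, median and highest value of 93.1, 171.9 and 296.1 CPM at day 8, against 42.1, 69.2 and 104 CPM at day 3. Each of the 12 day 8 libraries was above the day 3 library of the same number, virus and medium, although the ranges of the days overlap. Libraries of a number share deviations within a day but little across days. Such pairs between days are therefore matched by label only and are not independent. The mean log2 fold change of Slc2a1 was 1.36 ± 0.24 (edgeR, adjusted p = 0.000454). Slc2a3 had 61.6, 118.6 and 311.9 CPM at day 8, against 41.3, 53.5 and 66.5 CPM at day 3. It was higher in 11 of 12 such pairs, with 1.44 ± 0.27 (adjusted p = 0.000803). Slc23a2 had 50.6, 61.8 and 77.2 CPM at day 8, against 42.0, 50.3 and 63.5 CPM at day 3. The rise was small but present in 12 of 12 pairs, 0.33 ± 0.07 (adjusted p = 0.00375), and on the log2(TPM + 1) scale it missed the threshold (limma, 0.29, adjusted p = 0.0614). In the same comparison 9 of 10 pluripotent markers rose (median 3.30), with sums of 15.4 to 357.7 CPM at day 8, against 3.88 to 45.1 CPM at day 3. Of 8 epithelial markers 7 rose (median 2.47), with sums of 134 to 694 CPM at day 8, against 61.5 to 128.5 CPM at day 3. Fibroblast markers had 2 of 10 higher (median 0.62) and macrophage markers 1 of 10 (median -0.09). Their part in the rise of the members was not tested.

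Gsto2, at 95 counts over the day 8 libraries and 60 over those of day 3, had a log2 fold change of 0.78 ± 0.30 (edgeR, adjusted p = 0.0684). It was called with the within-day block (0.78 ± 0.30, adjusted p = 0.0492) and without the day 8 Flag DMSO library 0826, which held 1 count (0.90, adjusted p = 0.0303). Gsto1 had a lowest, median and highest value of 279, 415 and 587.8 CPM at day 8, against 292, 385.7 and 577.4 CPM at day 3, with 0.04 ± 0.23 (adjusted p = 0.941). In the mean over virus and medium 3 of 5 tested members rose and none fell, where 25.1% of all genes were called. With the within-day block 4 rose, where 40% of genes were called, and the members' median was 0.78 beside 0.01 over all genes. Calls with the block between days leave out the spread between the numbers, whose libraries share deviations within a day. They are therefore less cautious. The fit without a block takes the libraries of a day as independent, so its errors for the mean over groups can be too small as well. Within the Flag DMSO group alone none of the 5 was called, where 1.09% of genes were. There Slc2a1 had 207 and 136.8 CPM at day 8, against 104 and 53.5 CPM at day 3. It was 1.12 ± 0.57 (adjusted p = 0.482) and 1.17 ± 0.23 under the within-day block (adjusted p = 0.00365), the 1 member called in a fit that called 8.62% of genes. Slc2a3 in that group was 0.62 ± 0.64 (adjusted p = 0.808), and -0.09 without the day 8 library 0824. Gsto2 had 14 counts at day 8 and 2 at day 3, a ratio of 7.47 (95% counting interval 1.72 to 67.7; 2.58 ± 0.89 in the fit, adjusted p = 0.229).

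Against MEF, Flag DMSO cells at day 8 kept the raised Slc2a3. They had 138.1 and 61.6 CPM of Slc2a3, against 10.3 and 9.14 CPM in MEF, without overlap (3.36 ± 0.73, edgeR adjusted p = 0.00251). Slc23a2 had 51.8 and 66.7 CPM, against 38.01 and 34.9 CPM in MEF, again without overlap. Its log2 fold change was 0.70 ± 0.18 (adjusted p = 0.00825), but the call was lost without MEF 0826 (0.64, adjusted p = 0.0702) or without the day 8 library 0826 (0.51, adjusted p = 0.096). Slc2a1, with 207 and 136.8 CPM, stood above both MEF libraries (0.59 ± 0.57, adjusted p = 0.461). The within-day block called it (0.57 ± 0.22, adjusted p = 0.0453). Gsto1 (-0.47 ± 0.57) and Gsto2 (-1.10 ± 0.68) had adjusted p = 0.571 and 0.234 in edgeR, and Gsto2 passed without the day 8 library 0824 (-3.18, adjusted p = 0.0433). Thus 2 of 5 members rose, where 30.8% of genes were called, and with the block 3 were called, where 45.9% of genes were.

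Of the other genes in that comparison, 5 of 6 in glutathione supply rose and none fell (median 1.12), among them Gsr by 1.47 ± 0.26 and Gclm by 0.99 ± 0.28. The other recycling genes had 3 rises and 3 falls among 11 (median -0.01). Cybrd1 was higher by 2.92 ± 0.50 (edgeR, adjusted p = 3.74e-04), Cyb561 by 2.40 ± 0.43, and Glrx and P4hb were lower (-2.02 and -1.24). Of the Slc2a1 regulators Hif1a fell by 1.16 ± 0.18, the 1 call of 5 (median -0.14). Of 10 HIF targets 2 rose, Egln3 and Pdk1, and Adm fell (median 0.53). None of 8 other Slc2a genes rose and 3 fell (median -0.79, or -0.62 with the gene at 0 counts in 1 group set at its bound), and Akr1a1 fell by 0.72 ± 0.14 (median of 4 synthesis genes -0.72).

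ESC remained apart from day 8 cells, with Slc2a3 higher and Gsto1 lower. ESC had 618 and 1397 CPM of Slc2a3, against 138.1 and 61.6 CPM in Flag DMSO cells at day 8 (3.33 ± 0.69, edgeR adjusted p = 0.000987). Every one of the 12 day 8 libraries lay below both ESC libraries. Gsto1 had 171.7 and 20.2 CPM in ESC, against 537.5 and 307.8 CPM in Flag DMSO cells at day 8, and was lower by log2 fold change -2.14 ± 0.60 (adjusted p = 0.00818). That call was lost without the day 8 library 0824 (-1.68, adjusted p = 0.066). Without ESC 0822, the library with fibroblast markers, Slc2a3 was at 3.78 and Gsto1 at -4.40 (adjusted p = 0.000467 and 4.76e-06). For Slc2a1, Slc23a2 and Gsto2 the log2 fold changes were 0.04 ± 0.56, -0.05 ± 0.18 and -0.38 ± 0.73, none past the threshold. So 1 member rose and 1 fell, where 41.9% of genes were called, and 2 were called with the within-day block, where 55.2% of genes were. Among 14 groups ordered by mean CPM, Slc2a3 ran from ESC over the 6 day 8 groups and the 6 day 3 groups to MEF, and 8 of the 13 neighbouring groups overlapped in range. For Slc23a2, Slc2a1 and Gsto1 12 of 13 neighbours overlapped, so the finer order of their groups is not resolved. Of the other pathway genes between ESC and Flag DMSO day 8, 2 of 6 in glutathione supply rose and 2 fell (median 0.04), and 2 of 11 recycling genes rose and 2 fell (median 0.17). Among 8 other Slc2a genes 3 rose and 2 fell (median -1.05), among 10 HIF targets 1 rose and 2 fell (median -0.43), and 1 of 5 Slc2a1 regulators and 1 of 4 synthesis genes rose.

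The other pathway genes between day 8 and day 3 gave 3 rises and 2 falls among 11 recycling genes (median -0.01). Cyb561 had 5.54 to 15.3 CPM at day 8, against 1.84 to 6.80 CPM at day 3 (1.31 ± 0.17, edgeR adjusted p = 2.93e-05), and Cybrd1, a ferric reductase that uses ascorbate, rose by 0.95 ± 0.18 (adjusted p = 0.00108). In glutathione supply 1 of 6 rose and 1 fell (median 0.11). The cystine transporter gene Slc7a11 had 23.4 to 61.8 CPM at day 8, against 7.40 to 31.1 CPM at day 3 (1.62 ± 0.12, adjusted p = 2.01e-07). Of the 5 Slc2a1 regulators 3 rose (median 0.53). Txnip, whose protein promotes removal of GLUT1 from the cell surface, had 134.4 to 203.4 CPM at day 8, against 45.0 to 109.9 CPM at day 3, without overlap (1.14 ± 0.20, adjusted p = 4.68e-04). Of 10 HIF targets 3 rose (median 0.34), namely Car9 by 2.98 ± 0.52, Egln3 by 1.03 ± 0.30 and Vegfa by 0.95 ± 0.22. Vegfa differed by number. Its mean was 51.4 CPM at day 8 and 46.4 CPM at day 3 in 0824, with overlapping ranges, while in 0826 it was 116.7 CPM at day 8 and 38.2 CPM at day 3, without overlap. Of the 8 other Slc2a genes 1 rose and 2 fell (median -0.11), with Slc2a6 up by 0.84 ± 0.26 and Slc2a9, a urate transporter, down (-1.21 ± 0.27). Akr1b3 fell by 0.40 ± 0.10, the 1 call among 4 genes of synthesis before Gulo (median -0.11).

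The size of the day 8 rise differed between the library numbers. At day 8, Slc2a3 ranged from 138.1 to 311.9 CPM in the 6 libraries 0824 and from 61.6 to 99.0 CPM in the 6 libraries 0826. At day 3 both numbers had like values, 41.3 to 64.0 CPM in 0824 and 42.1 to 66.5 CPM in 0826. In the fit with the within-day block, 0824 was above 0826 at day 8 by a log2 fold change of 1.46 ± 0.16 (edgeR, adjusted p = 4.53e-06), and the day 3 difference was -0.08 ± 0.16. Slc2a1 ranged from 207 to 296.1 CPM in 0824 and from 93.1 to 136.8 CPM in 0826 at day 8, again without overlap. Its difference was 1.18 ± 0.13 at day 8 (adjusted p = 5.16e-06) and 0.51 ± 0.13 at day 3 (adjusted p = 0.0153). The change of this difference between the days was 1.54 ± 0.22 for Slc2a3 (adjusted p = 1.36e-04) and 0.67 ± 0.18 for Slc2a1 (adjusted p = 0.0128). Thus 2 of 5 members were called for the number at day 8, where 40.5% of genes were, 1 at day 3, where 16.5% were, and 2 for the change between days, where 27.1% were.

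Within each number Slc2a1 was higher at day 8 in 6 of 6 pairs. Its ratios of the mean CPM of day 8 to that of day 3 were 2.99 in 0824 and 1.88 in 0826. Slc2a3 was higher in 6 of 6 pairs of 0824 (ratio of means 4.21) and 5 of 6 of 0826 (1.41). For Slc23a2 the ratios were 1.26 and 1.25. Gsto1 was opposite in the numbers, with 470.8 to 587.8 CPM at day 8 in 0824 and 279 to 359 CPM in 0826. Its ratio of day 8 to day 3 was 1.32 in 0824, higher in 5 of 6 pairs, and 0.731 in 0826, lower in 6 of 6 pairs. The change of its number difference between days was 0.86 ± 0.40 (edgeR, adjusted p = 0.128). Marker sums moved with the numbers at day 8. Epithelial markers summed to 385 to 694 CPM in 0824 and 134 to 285.5 CPM in 0826, pluripotent markers to 24.6 to 357.7 and 15.4 to 167 CPM, and fibroblast markers to 1880 to 3068 and 4536 to 6846 CPM. Their part in these differences was not tested, and none of the epithelial, pluripotent or fibroblast markers was at 0 counts over either set. At day 3 fibroblast markers already differed by number, with sums of 1965 to 3853 CPM in 0824 and 3835 to 5209 CPM in 0826. Epithelial markers summed there to 61.5 to 128.5 and 62.1 to 115.1 CPM, and pluripotent markers to 6.11 to 45.1 and 3.88 to 16.9 CPM.

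**Figure D3:**
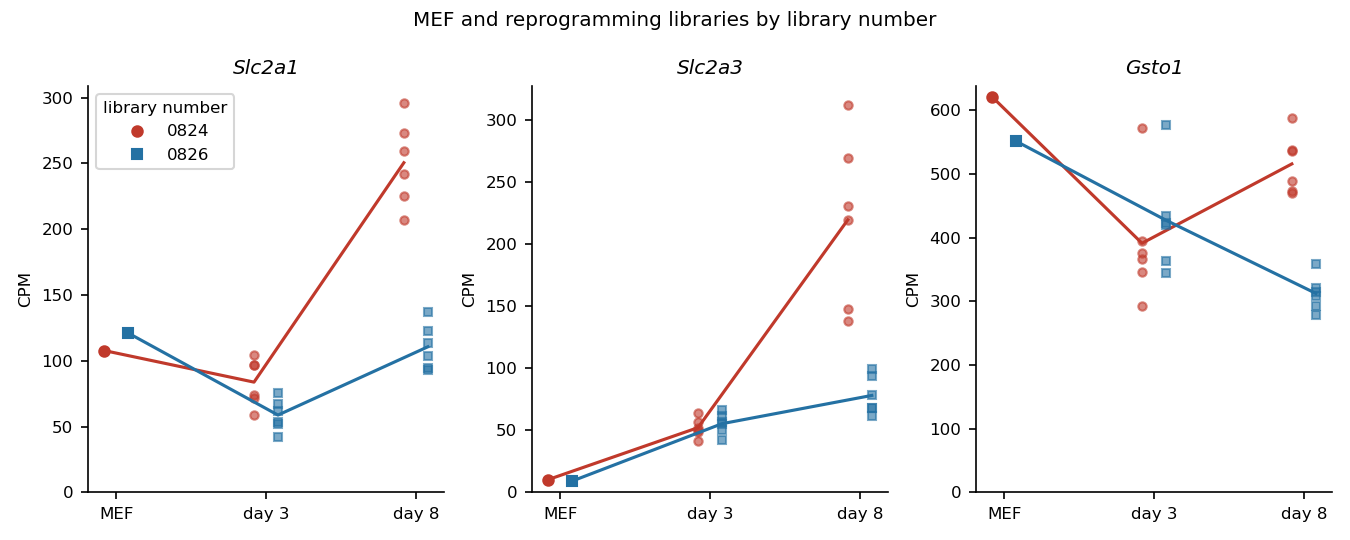
CPM of Slc2a1, Slc2a3 and Gsto1 in MEF, day 3 and day 8 libraries of the numbers 0824 (circles) and 0826 (squares); points are single libraries and lines join the means of each number. At day 8 all 6 libraries 0824 lie above all 6 libraries 0826 for the 3 genes, and at day 3 the numbers overlap.

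Whether added vitamin C changed the genes of its own uptake and recycling was asked in 4 pairs of groups and in their mean. No member was called. Over the mean of virus and day, where 0.59% of genes were called, the log2 fold changes of Vc over DMSO were 0.20 ± 0.09 for Slc23a2 (edgeR, adjusted p = 0.681), 0.27 ± 0.32 for Slc2a3 (adjusted p = 1), 0.25 ± 0.28 for Gsto1 (adjusted p = 1) and 0.74 ± 0.37 for Gsto2 (adjusted p = 0.788), and Slc2a1 was near 0. Slc23a2 was higher with Vc in 7 of 8 pairs of the same number, day and virus, with a median log2 ratio of 0.24. Of the other pathway genes tested, 0 were called in each of the 6 lists, for Vc, for DKG and for Tet1CD over their means. In Tet1CD against Flag cells with Vc at day 3, Slc7a11 of glutathione supply was called higher (1.49 ± 0.30, edgeR, adjusted p = 0.0309). Members called were 0 of 5 in Tet1CD cells at day 3, where 0.261% of genes were called, and at day 8, where 0.174% were. In Flag cells 0% of genes were called at either day, with 200 genes at day 3 and 371 at day 8 at an unadjusted p under 0.05, and DESeq2 called 1 and 8 genes there. Both 200 and 371 are below 0.05 of the 14914 genes tested, the share that no change would give on average. Missing calls of members in such comparisons thus say little.

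The within-day block, which takes out the difference between the numbers, called no member for Vc either. It called 0.0469% of genes in Flag cells at day 3 and 0.121% at day 8, 0.57% in Tet1CD cells at day 3 and 1.05% at day 8, and 2.65% in the mean over virus and day. In that mean Slc23a2 was at 0.21 ± 0.07 (edgeR, unadjusted p = 0.00905, adjusted p = 0.154) and Slc2a3 at 0.26 ± 0.14 (adjusted p = 0.454). Markers also differed with Vc. Pluripotent markers had a median log2 fold change of 1.86 in the mean over virus and day without the block, with 1 of 10 called.

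The Slc2a3 ratios of Vc to DMSO lay on opposite sides of 1 at the 2 days. At day 8 it had 311.9 and 93.4 CPM in Flag cells with Vc, against 138.1 and 61.6 CPM with DMSO, and 269.4 and 99.0 CPM in Tet1CD cells with Vc, against 219 and 67.8 CPM with DMSO. Every Vc library was above the DMSO library of its number, in 4 of 4 pairs. The pluripotent markers, among them Fbxo15, whose pattern over groups is close to that of Slc2a3, were higher in the same 4 pairs. They summed to 249.9 and 52.1 CPM in Flag cells with Vc, against 24.6 and 15.4 CPM with DMSO, and to 357.7 and 167 CPM in Tet1CD cells with Vc, against 110.1 and 39.3 CPM with DMSO. Their median log2 fold change was 4.51 in Flag and 2.30 in Tet1CD cells, with 0 of 10 called by edgeR, and their part in the Slc2a3 values was not tested. At day 3 it had 52.2 and 61.7 CPM in Flag cells with Vc, against 64.0 and 66.5 CPM with DMSO, and 48.4 and 50.4 CPM in Tet1CD cells with Vc, against 49.8 and 54.8 CPM with DMSO, lower in 4 of 4 pairs. The difference between the days was 0.83 ± 0.64 (edgeR, unadjusted p = 0.216, adjusted p = 1), so it did not pass. With the within-day block it was 0.80 ± 0.27 (unadjusted p = 0.00963, adjusted p = 1), a smaller error that still did not pass over all genes. The pluripotent markers had a median of 2.41 in the same interaction without the block. For that interaction 0% of genes were called, 173 had an unadjusted p under 0.05 (505 with the block, which also called 0%) and DESeq2 called 1 gene. Both 173 and 505 are below 0.05 of the genes tested. In Flag cells at day 8 the log2 fold change was 1.02 ± 0.64 (adjusted p = 1), and -0.11 without the Vc library 0824. With the within-day block it was 0.90 ± 0.27 (unadjusted p = 0.00401, adjusted p = 0.356). Gsto1 was higher with Vc in 4 of 4 pairs at day 3 (median log2 ratio 0.39) and in 2 of 4 at day 8 (0.04). No member was called for the interaction of virus and Vc, where 0.148% of genes were (0.188% with the block, also without a member).

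**Figure D4:**
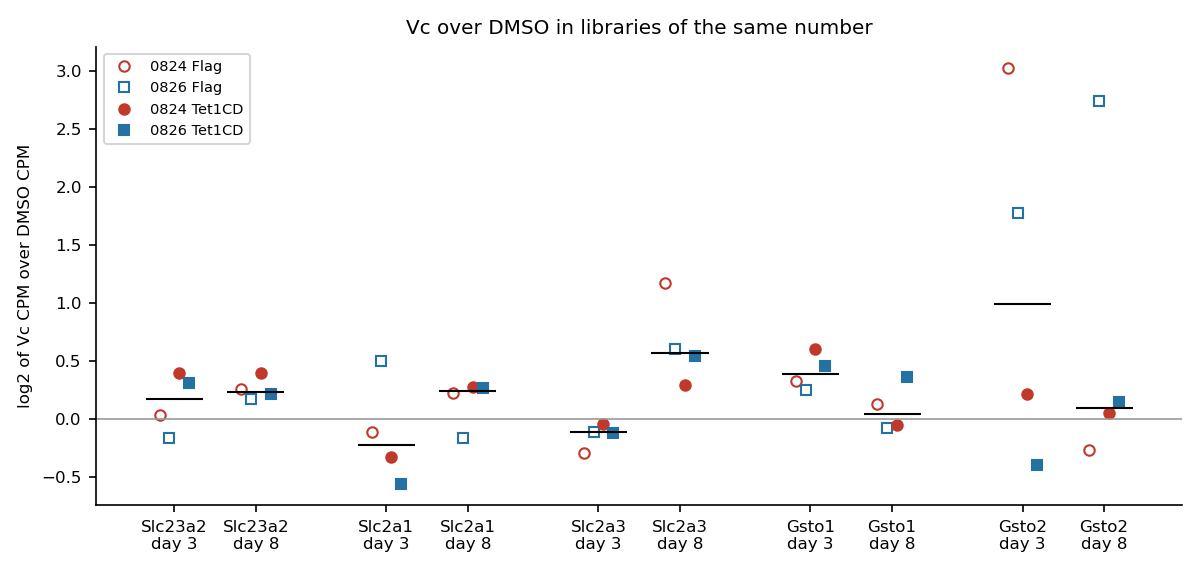
Log2 ratio of Vc over DMSO CPM in libraries of the same number, virus and day, for the 5 tested genes at day 3 and day 8; filled symbols are Tet1CD cells, open symbols Flag cells, and black lines medians of 4 pairs. Slc2a3 lies below 0 in 4 of 4 pairs at day 3 and above 0 in 4 of 4 at day 8, and the high Gsto2 ratios stand on DMSO libraries with 1 count.

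DKG, the other addition, moved no member past the threshold, and 0% of all genes were called for it in the mean over virus and day (65 genes at an unadjusted p under 0.05, 0 called by DESeq2). With the within-day block 0% of genes were called too, with 262 at an unadjusted p under 0.05. Both 65 and 262 are below 0.05 of the genes tested, so missing calls say little here too. Slc2a3 with DKG was lower than with DMSO in 4 of 4 pairs at day 3 (median log2 ratio -0.26) and higher in 4 of 4 at day 8 (0.08), the smallest ratio there being 0.002. The DMSO libraries are the same as those set against Vc, so the 2 sets of pairs share their control. Slc23a2, Slc2a1 and Gsto1 with DKG had median log2 ratios of -0.03, -0.04 and 0.02 over 8 pairs.

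Tet1CD against Flag called none of the 5 members either, where 2.1% of all genes were called in the mean over medium and day. Slc2a1 was lower in Tet1CD than in Flag cells in 5 of 6 pairs at day 3 and in 3 of 6 at day 8 (-0.22 ± 0.23 over both days, edgeR adjusted p = 0.799). With Vc at day 3 it had 58.9 and 42.1 CPM in Tet1CD cells, against 96.9 and 75.8 CPM in Flag cells, without overlap. That log2 fold change was -0.77 ± 0.58 (adjusted p = 0.853), in a comparison that called 0.483% of genes, and with Vc at day 8 no member was called either, where 0.235% of genes were. Slc2a3 was lower in 6 of 6 pairs at day 3, with log2 ratios from -0.47 to -0.11, and Gsto1 higher in 6 of 6, from 0.19 to 0.64. At day 8 these were 2 of 6 lower and 2 of 6 higher. Slc23a2 had 0.11 ± 0.07 over both days (adjusted p = 0.614). No member was called for the interaction of virus and day, where 0.295% of genes were. The within-day block called no member in any of these comparisons, where it called 8.69% of genes in the mean over medium and day, 3.53% with Vc at day 3, 2.14% with Vc at day 8 and 2.57% for the interaction of virus and day. With it Slc2a1 was at -0.25 ± 0.09 in the mean (adjusted p = 0.109) and at -0.78 ± 0.23 with Vc at day 3 (adjusted p = 0.0745).

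Gsto2 at day 3 held 42 counts over the 6 Tet1CD libraries and 18 over the 6 Flag libraries, a ratio of 2.63 (95% counting interval 1.48 to 4.86). At day 8 it held 53 and 42 counts, a ratio of 1.07 (0.698 to 1.64). In the mean over medium and day the log2 fold change was 0.88 ± 0.30 (edgeR, unadjusted p = 0.00988, adjusted p = 0.193). The Flag DMSO cells of day 3, with 1 count in each library, are the lowest group. The counting intervals leave out every error but that of counting, because the reads have no molecular identifiers.

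Slc23a1 and Gulo were near the limit of detection. Slc23a1, the epithelial ascorbate transporter, had 4 and 2 counts in ESC, against 3 and 3 in MEF (ratio 0.941, 95% counting interval 0.252 to 3.52). Its highest value was 3.56 CPM (20 counts), in the Tet1CD library 0824 with Vc at day 8. This library also had the highest macrophage markers of day 8, 1367 CPM summed with none of the 10 at 0, against at most 100.9 CPM in the other 11 libraries. It had 85 counts over the day 8 libraries and 51 over those of day 3, a ratio of 1.57 (1.10 to 2.27), and at day 8 64 counts in the 6 libraries 0824 and 21 in the 6 libraries 0826 (2.24, 1.35 to 3.86). Without that library the ratios were 1.32 (0.898 to 1.94), an interval that includes 1, and 1.82 (1.06 to 3.22). Since 2.35% of its stretches occur in other genes and RSEM shares such reads, counts this low are estimates, and they are given with no test.

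Gulo, the last enzyme of ascorbate synthesis, was detected mainly in ESC. It had 4 counts (0.795 CPM) in ESC 0822 and 15 counts (2.92 CPM) in ESC 0819. In the other 29 libraries it had 9 counts in all, at most 1 in each, and 20 libraries were at 0. ESC over MEF gave 19 against 1 count, a ratio of 17.9 (95% counting interval 2.84 to 743.2), and ESC over day 8 gave 19 against 7, a ratio of 16.9 (6.79 to 47.5). ESC 0819 over ESC 0822 gave 3.67 (1.17 to 15.2). Of the day 8 libraries 7 of 12 had 1 count and of the day 3 libraries 1 of 12, a ratio of 6.59 whose interval (0.847 to 297) includes 1. Hepatocyte and endoderm markers (5 genes, Alb, Afp, Ttr, Apoa1 and Apob) summed to 1.99 and 5.25 CPM in ESC, against 1.93 and 1.02 CPM in MEF, with Afp at 0 in ESC and Alb, Ttr and Apoa1 at 0 in MEF.

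**Figure D5:**
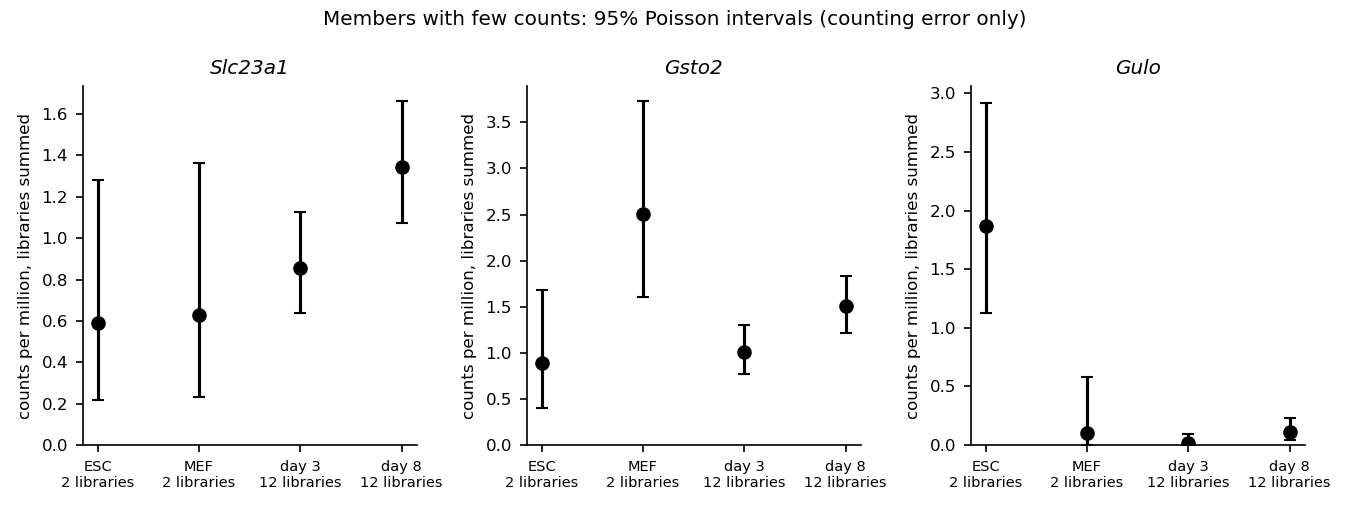
Pooled CPM of Slc23a1, Gsto2 and Gulo with the libraries of a set summed (ESC and MEF 2, day 3 and day 8 12 libraries each); bars are 95% Poisson intervals for counting error only. Gulo is at 1.87 CPM in ESC and under 0.12 in the other sets, and Gsto2 is highest in MEF with 2.51 CPM.

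Across the 14 groups with 2 libraries, the genes whose mean log2 CPM (with a prior count of 2) was most like that of each member were listed by Pearson's r, as a description over 14 points that share library depth and differ mostly by cell type. For Slc2a3 they were Cdh1 (0.99), the epithelial cadherin also found in pluripotent cells, Fbxo15 (0.99), a gene of pluripotent cells, and Vps54 (0.98). For Gsto1 they were Col6a1 (0.99), a collagen chain, Mmp2 (0.99), a matrix protease, and Capn2 (0.98). Slc23a2 was most like Ly6e (0.94), Urah (0.94) and Gstm1 (0.94), and Slc2a1 most like Lrmp (0.96), Nod1 (0.96) and Rims2 (0.96). For Gsto2 the leading gene was Gpr39, at 0.90. Among the members themselves Slc2a3 and Gsto1 ran in opposite directions (r = -0.78), Slc2a3 with Slc23a2 at 0.70 and Slc2a1 with Slc2a3 at 0.57.

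In the fibroblasts kept 3 days in medium, with 1 library each and so no replicate check, Slc23a2 had 28.9 CPM with Vc, 36.9 with DKG and 34.98 with DMSO. Untreated MEF had 38.01 and 34.9 CPM. The Slc23a2 value with Vc was the lowest of all 31 libraries and 0.825 of that with DMSO, while in reprogramming cells Slc23a2 was higher with Vc in 7 of 8 pairs. Slc2a1 had 89.6 CPM with Vc, 131 with DKG and 117 with DMSO, and Gsto1 523.3, 515.4 and 432.6 CPM. Slc2a1 with Vc was thus the lowest of the 5 fibroblast libraries, and Gsto1 with DMSO the lowest of them.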

How the data were processed

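RNA-seq of 31 mouse libraries was used. The submitters' processing notes name Bowtie, RSEM and the build mm10, with no versions. Per the labels' protocols, RNA was taken with Trizol and libraries were made with a TruSeq RNA kit, whose name does not mark strand. Per the file headers, the authors deposited an RSEM expected count and a TPM per gene. Reads that match several genes are split among them by the RSEM model. For the tests these were rounded to whole numbers, and TPM served to compare genes and in 1 alternative. Of 29267 gene identifiers, 28756 matched GENCODE mouse release 21, and the other 511 held at most 0.392% of a library's counts. The ESC libraries are named after their titles (0822 and 0819), and their deposited files carry the numbers the other way round.

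The 28 libraries of 14 groups of 2 entered 1 fit with edgeR 4.0.16 (limma 3.58.1, R 4.3.3): filterByExpr, TMM, 1 mean per group, the quasi-likelihood test, two-sided, and Benjamini-Hochberg adjustment over the 14914 genes tested in each of 18 comparisons. Calls are at adjusted p under 0.05. CPM use TMM-scaled library sizes. The fit was tested on simulated counts with known fold changes and independent libraries. Shared deviations of the numbers were not simulated, so that run cannot speak to them. Counts of 2 libraries of a group differed well beyond counting error (chi-square per degree of freedom 8.82 to 60.4), so none was counted as a repeat. Fibroblasts with 1 library entered no test.

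All 7 members are named. From each list of other pathway genes, up to 4 called genes with the smallest p could be named per comparison. The members and the lists were chosen with earlier results of these data known. Alternatives were another normalization (DESeq2 size factors), the DESeq2 1.42.0 test, no filter on low counts, limma on log2(TPM + 1), the 24 reprogramming libraries alone, 2 blocks for the library number, and leaving out each library. The differences between the numbers, values within each number, and Slc23a1 ratios without 1 library were added after seeing the data.

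Whether the numbers pair libraries was checked by correlating the deviations of 0824 and 0826 across genes between groups. The correlations were 0.356 to 0.504 within day 3 and 0.345 to 0.687 within day 8 (15 pairs of groups each), but -0.008 to 0.178 across days. The paired values are therefore given with a block within each day, the within-day block. The deviations are little shared across days. Calls with the block between days, or for a day against MEF, thus leave out the spread between the numbers. A count of 0 allows up to 3 counts, at most 0.845 CPM here.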

Additional observations from a re-analysis of the deposited data

Results flagged for a closer look

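The difference between the libraries 0824 and 0826 changed between day 8 and day 3 for both dehydroascorbate transporter genes, by a test of the interaction in the edgeR fit with the within-day block. For Slc2a3 the log2 difference was larger at day 8 by 1.54 ± 0.22 (adjusted p = 1.36e-04), and all 6 day 8 libraries 0824 were above all 6 libraries 0826. For Slc2a1 it was larger by 0.67 ± 0.18 (adjusted p = 0.0128), also with all 6 above all 6 at day 8. What the numbers stand for is not in the labels. No outlier was looked for within groups, because each holds 2 libraries.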

How the results depend on the processing

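Leaving out 1 library gave 1 to 2 members called for Flag DMSO day 3 against MEF (2 with all libraries), 1 to 3 for Flag DMSO day 8 against MEF (2) and 1 to 2 for ESC against Flag DMSO day 8 (2). The within-day block gave 4 members called for Flag DMSO day 3 against MEF, and 1 for Flag DMSO day 8 against day 3, where none was called without it. The log2 fold change of Gsto1 for day 8 against day 3, 0.04, changed sign with limma on TPM (-0.0068), the replicate block over all numbers (-0.0003), the within-day block (-0.0027) and within number 0826 (-0.44), and ran from -0.0536 to 0.1148 when libraries were left out. With libraries left out, Slc2a3 ran from -0.0899 to 1.09 for Flag DMSO day 8 against day 3, from -0.11 to 1.73 for Vc in Flag cells at day 8, and from -0.0102 to 0.54 for Vc over virus and day. The other 563 checks of single genes kept direction and side of the threshold, 10 gained and 9 lost the call in the same direction, and 294 of 302 counts of members stayed within 1.5 times. The replicate block over all numbers changed 1 call, Slc23a2 at day 3 against MEF (adjusted p = 0.0419). With 2 libraries a group, lone libraries were assumed to vary like the other groups, and for Slc23a1, Gsto2 and Gulo depth is the limit.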
